A study of Homo sapiens with 6 samples.

Results

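The subunits of the mTOR complexes and the TSC-RHEB switch that controls them were compared between control and fluoxetine-treated H460 cells. The 10 genes were MTOR, MLST8, RPTOR, AKT1S1, DEPTOR, RICTOR, MAPKAP1, TSC1, TSC2 and RHEB, taken from the count table by gene symbol out of 31762 genes. All 10 were among the 15646 genes that passed a filter on low counts and were tested.

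H460 is an established human lung large cell carcinoma line. RNA sequencing was performed on 3 control libraries and 3 libraries from cells given 20 µM fluoxetine, a selective serotonin reuptake inhibitor, for 24 h. Both groups carried the genotype label WT and were cultured with 10% fetal bovine serum in RPMI-1640, and no vehicle is named for the control cells. Because no label says that the 3 libraries of a group came from separate cultures, the p-values measure only the spread between these libraries, which may be technical.

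MTOR is a large kinase that works in 2 assemblies. In mTORC1, RPTOR brings substrates to the kinase, and the complex drives protein and lipid synthesis and restrains autophagy when amino acids and growth factors are plentiful. In mTORC2, RICTOR and MAPKAP1 replace RPTOR, and the complex phosphorylates AKT and related kinases. The small GTPase RHEB switches mTORC1 on at the lysosome, and the TSC1-TSC2 complex switches RHEB off. Read counts report the RNA of these genes and not the phosphorylation or amount of their proteins.

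The libraries held 16157507 to 27823667 counts, and every fluoxetine library was shallower than every control library. A count of 3 corresponded to 0.108 to 0.186 CPM (reads of a gene divided by the TMM-scaled library total in megareads), so counting error was small for every member except DEPTOR. The first principal component held 44.8% of the variance and separated the groups. The epithelial keratins KRT8, KRT18 and KRT19 were abundant, at 286 CPM or more in every library, and KRT18 was called lower with fluoxetine (log2 fold change -0.72, edgeR adjusted p = 0.00162), whose part in the results for the members was not tested. EPCAM had 4 to 11 counts and CDH1 0 to 1 count per library, so these epithelial markers were nearly absent from this line. The lymphoid, endothelial and fibroblast markers PTPRC, PECAM1, VWF, COL1A2 and DCN had at most 8 counts, whereas CD14 reached 2.33 CPM and COL1A1 5.35 CPM.

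Fluoxetine raised 2 of the 10 members, TSC1 and RICTOR, and lowered 0. In these bulk samples fewer cells of a kind and less RNA per cell cannot be told apart. A gene was called when its adjusted p fell under 0.05 in edgeR's quasi-likelihood test, adjusted by Benjamini-Hochberg over all tested genes. Over all tested genes, 7.76% were called higher and 5.32% lower with fluoxetine. DESeq2 gave a different balance, with 1124 higher and 1177 lower genes against 1214 and 833 in edgeR. The gene sets and scaling also differed, with 13906 genes given an adjusted p in DESeq2 and 15646 in edgeR. Under RLE scaling edgeR called 1117 higher and 988 lower. The median log2 fold change was 0.11 over the members and 0.03 over all tested genes, and 6 of the 10 members had positive values. At an unadjusted p under 0.05 the count of members was also 2 higher and 0 lower, and DESeq2 and limma-voom each called 2 higher and 0 lower. No member changed by 2-fold or more in either direction, a size that 1.39% of tested genes reached with a call. The plot of CPM by library shows the size of these differences beside the spread within groups.

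**Figure D1:**
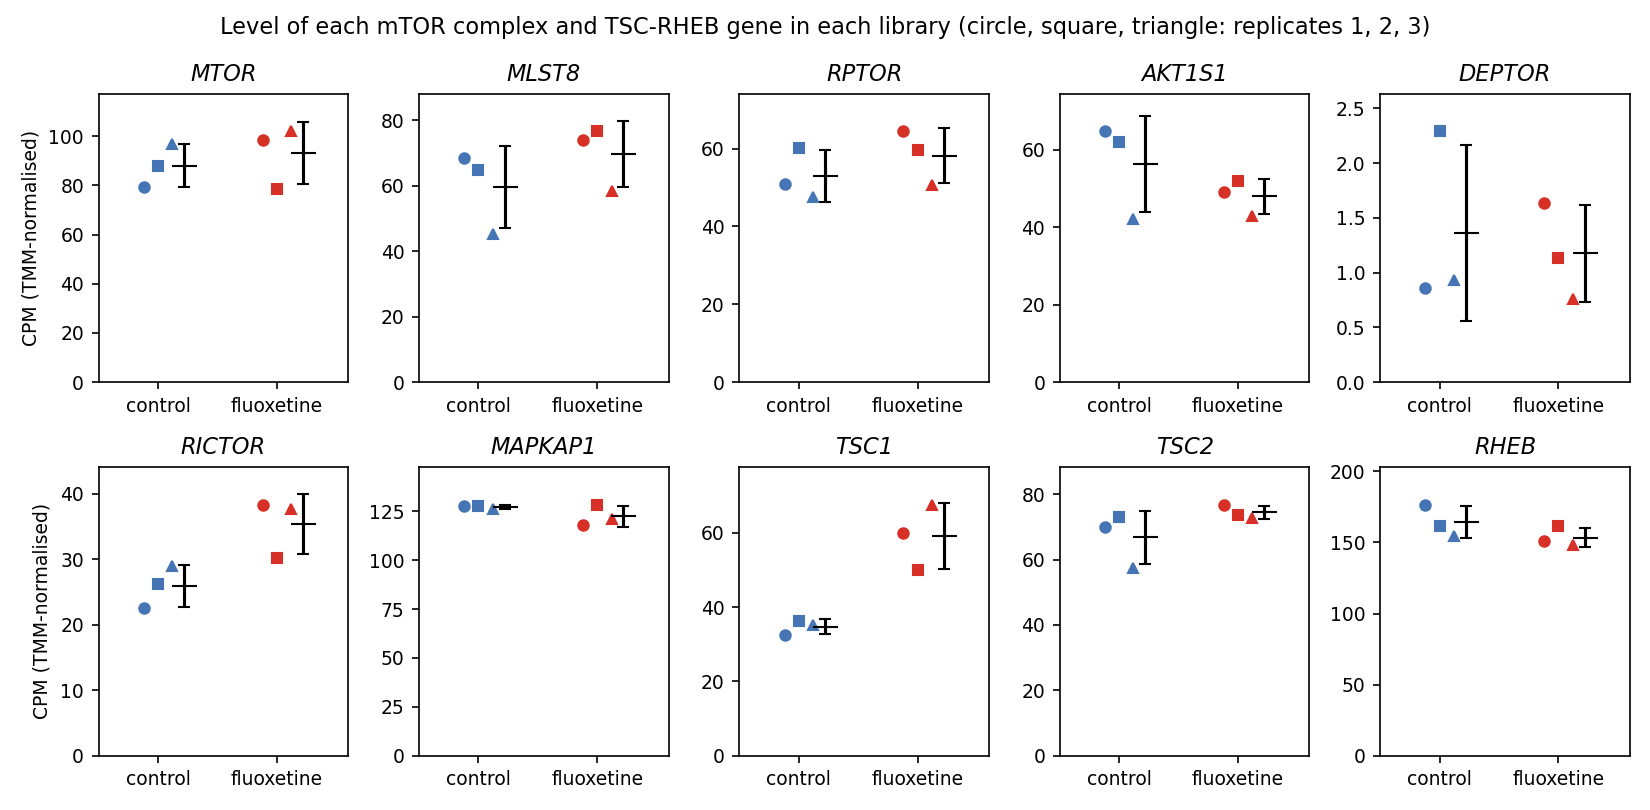
CPM of the 10 members in each of the 3 control and 3 fluoxetine libraries, with 1 panel per gene. Points are libraries (circle, square and triangle for replicates 1, 2 and 3) and the bars beside them give the mean ± SD of the group. The fluoxetine points of TSC1 (49.8 to 67.5 CPM) and RICTOR (30.1 to 38.3 CPM) all lie above the control points, while the groups overlap in the other members.

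TSC1 had the clearest difference. TSC1, also called hamartin, stabilizes TSC2 and is needed for the complex to inactivate RHEB. The gene (ENSG00000165699) lies at chr9:132891348-132944633 on the minus strand in coordinates that match GRCh38. TSC1 stood at 32.5, 36.4 and 35.3 CPM in control libraries 1 to 3, and at 60.05, 49.8 and 67.5 CPM in fluoxetine libraries 1 to 3. The groups did not overlap, and the lowest treated library was fluoxetine replicate 2. The mean rose from 34.7 ± 1.98 CPM to 59.1 ± 8.89 CPM (SD, n = 3 each), a 1.70-fold difference (95% confidence interval 1.43 to 2.03). The log2 fold change was 0.77 (SE 0.11, edgeR adjusted p = 0.00232). TSC1 was called in each of the 6 fits that left out 1 library, with log2 fold changes of 0.64 to 0.84.

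The sequence just upstream of TSC1 is shown because TSC1 was the member with the strongest call. Capitals mark 2 GC boxes, GGGCGG read on either strand, a common promoter element recognized by SP-family factors. The bases are from RefSeq (GRCh38.p14), chr9:132944811-132944840, minus strand, upstream of the start in RefSeq and outside the gene as the count table places it. GENCODE 29 extends TSC1 to position 132946874, and 24 of the 30 bases lie in an exon of that longer model.
TSC1: tccttCCGCCCggccCCGCCCccctccata

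The partner TSC2, or tuberin, carries the GTPase-activating domain that acts on RHEB. TSC2 (ENSG00000103197, chr16:2047465-2088720, plus strand) was at 69.9, 72.9 and 57.6 CPM in the controls and at 76.8, 73.8 and 72.8 CPM with fluoxetine. The groups overlapped narrowly, since control replicate 2 was level with the lowest treated library, and control replicate 3 was the low one. Its mean was 66.8 ± 8.12 CPM in controls and 74.5 ± 2.08 CPM after treatment (SD, n = 3 each). The log2 fold change of 0.16 (SE 0.10) was not called (edgeR adjusted p = 0.317), and the 95% interval of the fold, 0.963 to 1.29, leaves out a difference as large as that of TSC1. TSC2 shares 402 exon bases with NTHL1 and 778 with PKD1 on the other strand, and the strand setting of the counting is not given in the sources used here. Neither neighbour was called, with log2 fold changes of -0.12 for NTHL1 and 0.12 for PKD1.

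A short stretch upstream of a RefSeq start of TSC2 is shown because its window was the single member window with a CACGTG E-box. This is the core that TFEB-family and other basic helix-loop-helix factors bind. Capitals mark the palindrome TCACGTGA and the overlapping TGATGNAA, the core of composite sites bound by ATF4. The stretch comes from RefSeq (GRCh38.p14), chr16:2047862-2047891, plus strand, positions -123 to -94 from that start. It lies inside TSC2 as the count table places the gene, and in annotated exons of NTHL1 and TSC2.
TSC2: cggccccgTCACGTGATGCAAggatcgccg

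RHEB is the GTPase on which both TSC proteins act. Its level (ENSG00000106615, chr7:151466012-151520120, minus strand) was 177, 162 and 154 CPM in the controls and 151, 161 and 148 CPM with fluoxetine. The ranges overlapped, with control replicate 1 the highest of the 6 libraries. The means were 164 ± 11.3 and 153 ± 6.98 CPM (SD, n = 3 each), giving a log2 fold change of -0.10 (SE 0.08, 95% interval -0.27 to 0.07, edgeR adjusted p = 0.456). A processed copy, RHEBP2 on chromosome 10, is 98.7% identical to 600 bases of the RHEB transcript and had a mean count equal to 22.8% of that of RHEB. Reads could be split between these copies, so the RHEB level is uncertain to that extent. RHEBP2 itself had a log2 fold change of -0.03 (edgeR adjusted p = 0.892).

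MTOR (ENSG00000198793, chr1:11106535-11262507, minus strand), the kinase of both complexes, was at 79.2, 87.9 and 96.8 CPM in controls and at 98.5, 78.6 and 102 CPM with fluoxetine. Fluoxetine replicate 2 was below all controls and the other two treated libraries were above them, so the groups overlapped. The log2 fold change was 0.08 (SE 0.11, edgeR adjusted p = 0.669), and the 95% interval of the fold ran from 0.891 to 1.25.

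MLST8 (ENSG00000167965, chr16:2204248-2209416, plus strand) binds the kinase domain in both complexes. It was at 68.5, 64.7 and 45.2 CPM in controls and at 74.0, 76.6 and 58.2 CPM with fluoxetine. In each group the third library was the lowest, and fluoxetine replicate 3 fell within the control range. The means were 59.5 ± 12.5 and 69.6 ± 9.95 CPM (SD, n = 3 each), and the log2 fold change of 0.23 (SE 0.15) was not called (edgeR adjusted p = 0.371).

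Of the subunits found only in mTORC1, RPTOR (ENSG00000141564, chr17:80544819-80966371, plus strand) is the scaffold for substrates. RPTOR was at 50.9, 60.3 and 47.5 CPM in controls and at 64.5, 59.5 and 50.6 CPM with fluoxetine. The ranges overlapped, and only fluoxetine replicate 1 was above all controls. Its log2 fold change was 0.14 (SE 0.12, edgeR adjusted p = 0.485). AKT1S1, known as PRAS40 (ENSG00000204673, chr19:49869033-49878459, minus strand), is an AKT substrate that restrains mTORC1. It stood at 64.8, 62.0 and 42.3 CPM in controls and at 49.1, 51.9 and 43.0 CPM with fluoxetine. The treated libraries were all below control replicates 1 and 2 but above control replicate 3. The log2 fold change of -0.23 (SE 0.15) was not called (edgeR adjusted p = 0.356). Without control replicate 3 it was -0.44 and called (edgeR adjusted p = 0.0074), so this 1 library decided the call. AKT1S1 shares 392 exon bases with TBC1D17 on the other strand.

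DEPTOR, an inhibitor that binds MTOR in both complexes, was scarcely expressed. It had 19, 44 and 26 counts in the controls and 27, 19 and 13 counts with fluoxetine, or 0.757 to 2.29 CPM. Control replicate 2 was the highest and the groups overlapped. The fold was 0.883 (edgeR adjusted p = 0.825), and its 95% interval of 0.454 to 1.72 spans both a fall and a rise. The direction turned when control replicate 2 (log2 fold change 0.34) or fluoxetine replicate 3 (0.03) was left out.

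RICTOR was the other member that rose. It is the scaffold that defines mTORC2 and lies at chr5:38937919-39074408 on the minus strand (ENSG00000164327). RICTOR was at 22.6, 26.2 and 28.9 CPM in controls and at 38.3, 30.1 and 37.7 CPM with fluoxetine. The groups did not overlap, but fluoxetine replicate 2 was close to control replicate 3. The mean went from 25.9 ± 3.18 to 35.4 ± 4.57 CPM (SD, n = 3 each), a 1.36-fold rise (95% interval 1.12 to 1.66, edgeR adjusted p = 0.0419). Across the tested genes 17.5% were higher in every fluoxetine library than in every control library and 14.4% were lower in every one, against 2 and 0 of the 10 members. The RICTOR call was lost without control replicate 1 (adjusted p = 0.171), control replicate 2 (0.157), fluoxetine replicate 1 (0.217) or fluoxetine replicate 3 (0.154), although the log2 fold change stayed between 0.32 and 0.52. OSMR shares 229 exon bases with RICTOR on the other strand and had 8.34 times its mean count. OSMR had a log2 fold change of 0.28 (edgeR adjusted p = 0.0977), and its part in the RICTOR value was not tested.

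The upstream sequence of RICTOR is given as the other promoter of a called member. Capitals mark the 4 GC boxes, of which the first pair overlap. The 200 bases are from RefSeq (GRCh38.p14), chr5:39074450-39074649, minus strand, positions -250 to -51 from the start, and none lies in a GENCODE exon.
RICTOR: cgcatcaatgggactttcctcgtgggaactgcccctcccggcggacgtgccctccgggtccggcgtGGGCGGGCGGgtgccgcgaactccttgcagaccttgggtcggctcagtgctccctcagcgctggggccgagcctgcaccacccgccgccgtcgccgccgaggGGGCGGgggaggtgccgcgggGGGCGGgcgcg

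MAPKAP1 (ENSG00000119487, chr9:125437393-125707234, minus strand), known as SIN1, presents substrates to mTORC2. It was at 128, 128 and 126 CPM in controls and at 118, 128 and 121 CPM with fluoxetine. Control libraries were nearly level, and fluoxetine replicate 2 reached them while the other two treated libraries were lower. The log2 fold change was -0.05 (SE 0.07, edgeR adjusted p = 0.631), and its fold interval of 0.866 to 1.07 was the narrowest among the members. Thus the 2 members particular to mTORC2 had unlike results, with RICTOR called and MAPKAP1 not, although the difference between them was not tested. Outside the members, PRR5L, a partner of mTORC2, was called higher (log2 fold change 0.33, edgeR adjusted p = 0.0229). The related PRR5 was not called (0.04, adjusted p = 0.937).

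**Figure D2:**
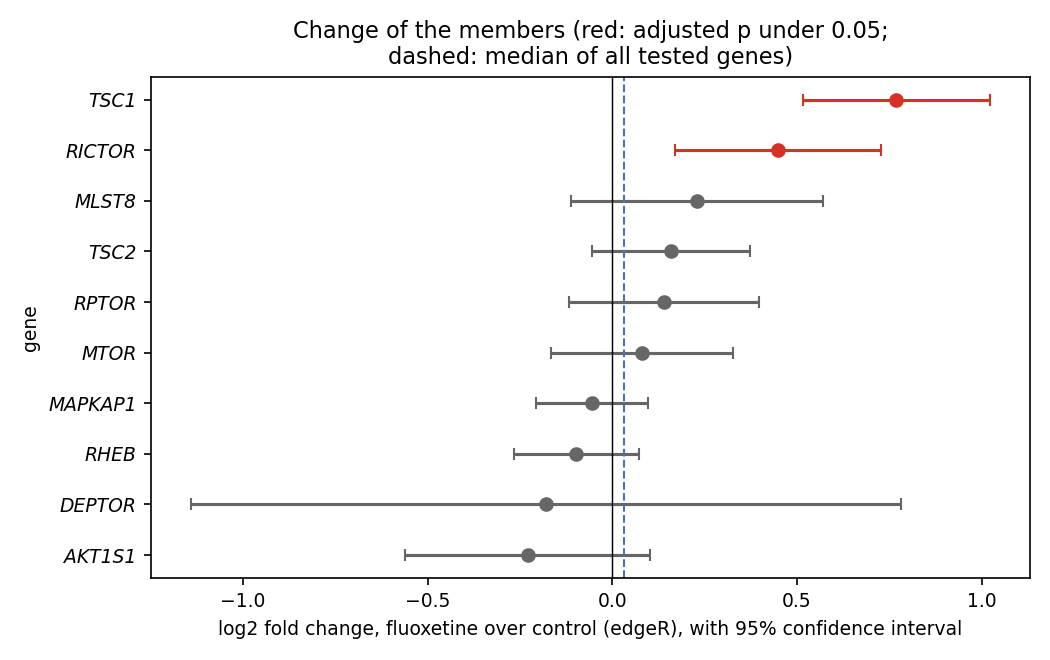
Log2 fold change (fluoxetine minus control) of each member with its 95% confidence interval from edgeR. TSC1 (0.77) and RICTOR (0.45) were called, and the intervals of the other 8 members cross 0, with DEPTOR the widest.

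The promoter windows of 7 members were found in the RefSeq table (250 bases before to 50 after the start), and MLST8, AKT1S1 and DEPTOR had no entry. On both strands, the E-box CACGTG and the palindrome TCACGTGA occurred in TSC2 alone, against 7.26% and 0.98% of all 35116 windows. TGATGNAA occurred in TSC2 alone, against 3.62% of windows, and a further TSC2 window in the table lacked the palindrome. The FOXO core TGTTTAC was in 0 of the 7 and in 3.42% of all windows. CCAAT was in MTOR, RHEB and RICTOR (34.6% of all windows), and the GC box GGGCGG in 6 of the 7, all but RPTOR (45% of all windows). TSC1 and RICTOR, the called members, thus had GC boxes but neither the E-box nor the TGATGNAA core in these windows, as did members that were not called. These matches describe letters and not binding.

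Both called members are long transcripts, and long genes as a class were shifted. Of 15600 tested genes with an annotated exon length, the 2975 with at least 8000 exon bases had a median log2 fold change of 0.13, and 14.4% of them were called higher and 2.22% lower. For the 4895 genes under 3000 bases the median was -0.0085, with 2.78% called higher and 5.41% lower. The class of long genes included 5 members, TSC2 (19626 exon bases), TSC1 (17600), RICTOR (13550), MTOR (12119) and RPTOR (10302). These lengths are from GENCODE 29, whose models of TSC1 and TSC2 reach beyond the ends in the count table. The libraries also differed within groups. The median deviation of the long genes on the log2(CPM + 0.5) scale was -0.15, -0.07 and 0.02 in the controls and 0.10, -0.02 and 0.13 with fluoxetine, so fluoxetine replicate 2 lay below control replicate 3. With trends on exon length and GC content removed, an alternative chosen after seeing the data, TSC1 had a log2 fold change of 0.57 (edgeR adjusted p = 0.000505). RICTOR was at 0.24 (adjusted p = 0.0375), a smaller value that was still called. MLST8 became called at 0.30 (adjusted p = 0.00473), MTOR stood at -0.05 and TSC2 at -0.0069.

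**Figure D3:**
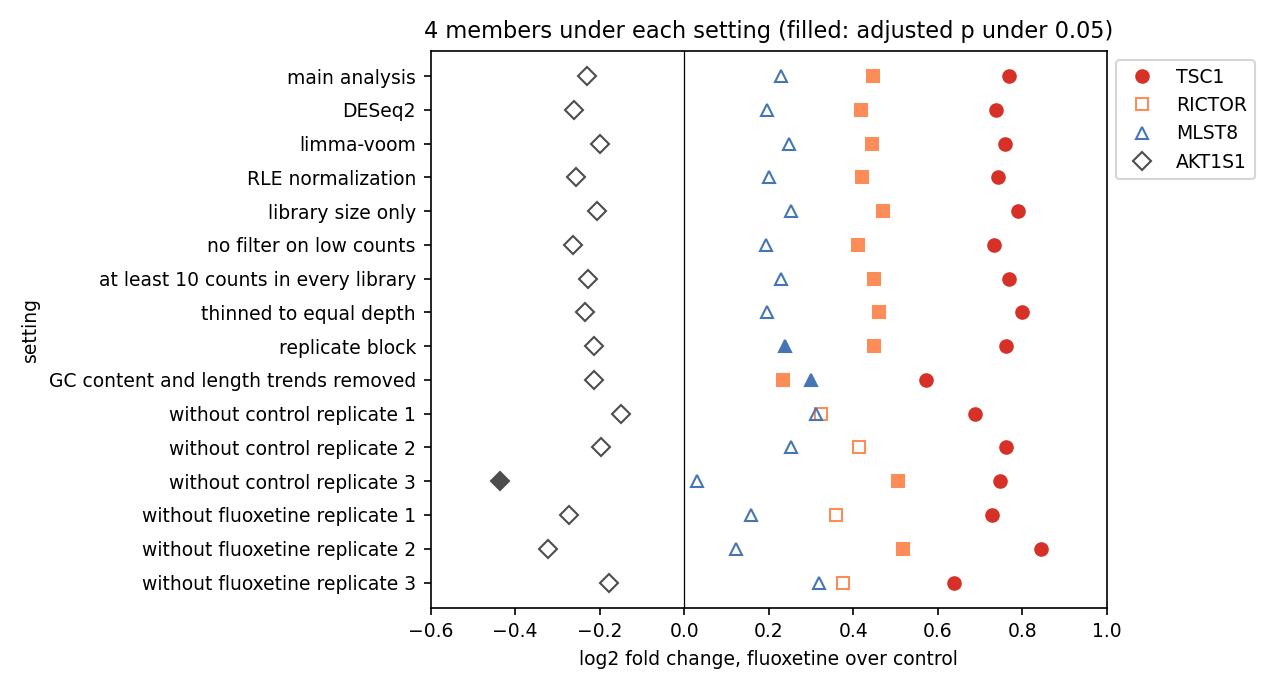
Log2 fold change of TSC1, RICTOR, MLST8 and AKT1S1, the 4 members called in any fit, under the main settings, 9 other processing settings and the 6 fits that each left out 1 library. Filled symbols have an adjusted p under 0.05. TSC1 lies between 0.57 and 0.84 and is filled throughout, while RICTOR lies between 0.24 and 0.52 and is open in 4 fits that left out 1 library.

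The levels of the members were compared per kilobase of exon (CPM divided by the union of exon lengths). In the control cells RHEB was the highest, at 46.5 ± 3.21 CPM per kb, followed by MAPKAP1 at 18.9 ± 0.156, MLST8 at 13.8 ± 2.89, AKT1S1 at 9.82 ± 2.14 and MTOR at 7.26 ± 0.726 (SD, n = 3). RPTOR followed at 5.13 ± 0.643 CPM per kb, then TSC2 at 3.40 ± 0.414, TSC1 at 1.97 ± 0.112, RICTOR at 1.91 ± 0.235 and DEPTOR at 0.520 ± 0.307. Within this order the control ranges of MLST8 and AKT1S1 overlapped, as did those of AKT1S1 and MTOR and those of TSC1 and RICTOR, so these neighbours could not be ranked. TSC1 and RICTOR, the members that rose, were the lowest in controls apart from DEPTOR. With fluoxetine TSC1 reached 3.36 ± 0.505 CPM per kb, beside 3.79 ± 0.106 for TSC2 and 2.61 ± 0.337 for RICTOR. The order depends on the length used. Per kilobase of the longest coding transcript, TSC2 in control cells was at 10.5 ± 1.28, beside MTOR at 10.1 ± 1.01 and RPTOR at 8.25 ± 1.03 CPM per kb, and the control ranges of these 3 genes overlapped, so they could not be ranked on that length.

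Ratios of counts within a library compared partners directly and did not depend on library scaling. The TSC2 to TSC1 ratio was 2.15, 2.004 and 1.63 in the controls and 1.28, 1.48 and 1.08 with fluoxetine. Every treated library was below every control, and the mean ratio (geometric) was 0.662 of its control value. In an exact two-sided permutation test, 3 against 3 libraries cannot give a p under 0.1, and this ratio gave p = 0.1 (0.167 after Benjamini-Hochberg adjustment over 5 ratios). The TSC2 to RHEB ratio, of the inhibitor to its target, was 0.396, 0.451 and 0.373 in the controls and 0.508, 0.457 and 0.493 with fluoxetine. These groups did not overlap, with a 1.20-fold higher mean ratio (exact permutation p = 0.1, adjusted 0.167). TSC2 has 19626 exon bases and RHEB 3535, and the ratios were not corrected for the shift of long genes. With exon length and GC trends removed, the log2 fold changes were -0.0069 for TSC2 and -0.05 for RHEB. The part of length in this ratio was not tested. The AKT1S1 to RPTOR ratio was 1.27, 1.03 and 0.890 in the controls and 0.762, 0.872 and 0.849 with fluoxetine, lower in every treated library by a narrow margin (fold 0.785, exact permutation p = 0.1, adjusted 0.167).

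The balance of the complexes themselves was less distinct. The RPTOR to RICTOR ratio, of the mTORC1 scaffold to the mTORC2 scaffold, was 2.26, 2.30 and 1.64 in the controls and 1.68, 1.98 and 1.34 with fluoxetine. The ranges overlapped, since control replicate 3 was below 2 treated libraries (exact permutation p = 0.3, adjusted 0.375). The DEPTOR to MTOR ratio ranged from 0.00967 to 0.0261 in controls and from 0.00742 to 0.0166 with fluoxetine, and also overlapped (exact permutation p = 0.8, adjusted 0.8).

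**Figure D4:**
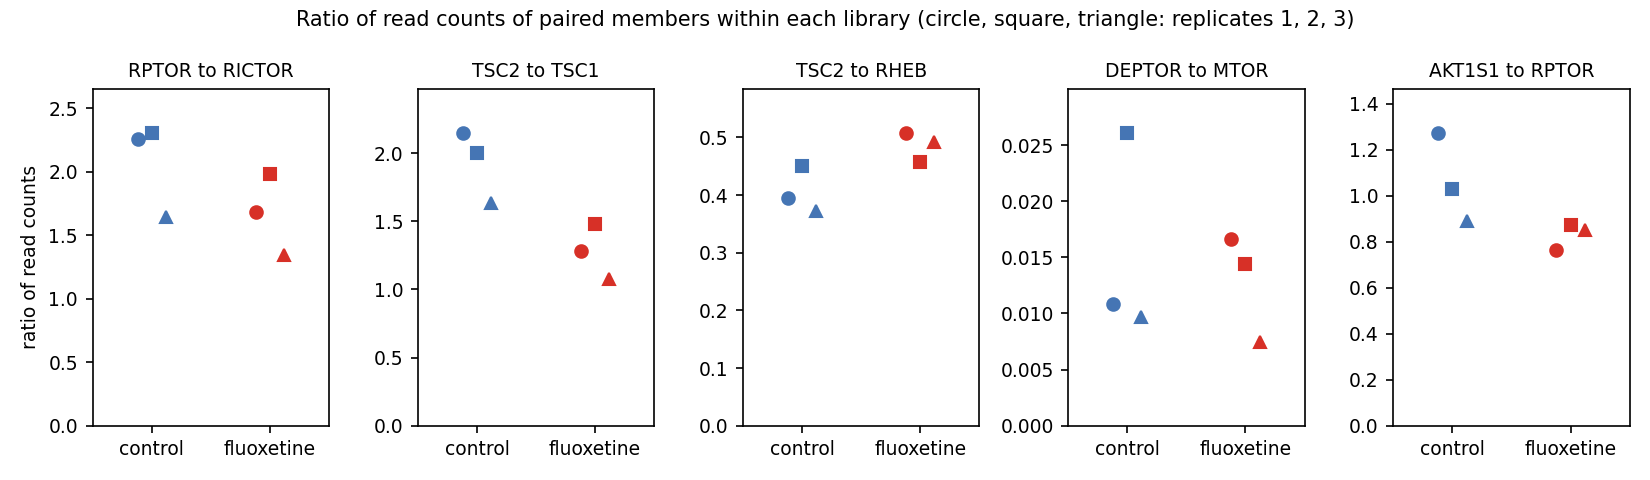
Ratios of counts between 5 pairs of members within each library, on a linear axis from 0, for the 3 control and 3 fluoxetine libraries. The groups separate for TSC2 to TSC1 (lower with fluoxetine), TSC2 to RHEB (higher) and AKT1S1 to RPTOR (lower), and overlap for RPTOR to RICTOR and DEPTOR to MTOR.

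Genes that act on or beside the complexes were described in the same way. The Rag GTPases, the Ragulator anchor and the folliculin complex bring mTORC1 to the lysosome when amino acids are present. Of these 13 genes, 7 rose (53.8%, against 7.76% of all tested genes) and 0 fell, with a median log2 fold change of 0.52, and 4 rose by 2-fold or more. RRAGD, one of the Rag GTPases, was at 5.22, 4.58 and 4.50 CPM in controls and at 25.1, 31.0 and 27.1 CPM with fluoxetine. It was far above control in every treated library, with a log2 fold change of 2.54 (SE 0.13, edgeR adjusted p = 1.88e-06). FNIP1, a folliculin partner, rose from 20.9 ± 4.22 to 62.9 ± 2.04 CPM (log2 fold change 1.58, adjusted p = 4.75e-05), and FLCN, folliculin itself, from 13.9 ± 0.410 to 31.0 ± 1.59 CPM (1.16, adjusted p = 5.29e-05). RRAGC rose from 9.16 ± 1.94 to 20.6 ± 1.90 CPM (1.17, adjusted p = 0.00117), and the Ragulator subunit LAMTOR3 from 27.1 ± 0.936 to 38.7 ± 1.53 CPM (0.52, adjusted p = 0.00472). The other Ragulator subunits were not called. LAMTOR1 was nearest to the threshold, at 0.34 without overlap between groups (adjusted p = 0.0624), and LAMTOR2, LAMTOR4 and LAMTOR5 lay between -0.14 and 0.09. Between 4 and 7 of the 13 were called when 1 library was left out, with the lowest count without fluoxetine replicate 1. Of the 11 genes of this list with a promoter entry, 5 had the CACGTG E-box in at least 1 window. Over all windows the E-box was in 7.26%, a share per window and not per gene, so 5 of 11 was not read against it. The 5 genes were FNIP1, LAMTOR1, LAMTOR4, RRAGB and RRAGC. Of these, LAMTOR1 and LAMTOR4 were not called. FLCN and RRAGD were called but were not among the genes with a match. Some genes of the list had no entry, so a missing match alone does not show that a promoter lacks the E-box.

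In the arm from the insulin receptor to PI3K, which acts on TSC2 through AKT, 6 of 11 tested genes rose and 0 fell. The share that rose was 54.5%, against 7.76% of all tested genes, and the median log2 fold change was 0.35. IRS2, an adaptor of the insulin receptor, rose from 89.1 ± 3.57 to 120 ± 6.50 CPM (0.43, edgeR adjusted p = 0.00503). The PI3K regulatory subunits PIK3R1 (0.80, adjusted p = 0.00884) and PIK3R3 (0.67, adjusted p = 0.0152) rose, as did the receptor IGF1R (0.37, adjusted p = 0.0188) and the catalytic subunit PIK3CA (0.61, adjusted p = 0.0314). The count changed with the libraries used, and was 0 without fluoxetine replicate 1, 1 without control replicate 2, 2 without fluoxetine replicate 3 and 3 without control replicate 1. IRS2, PIK3R1, IGF1R and PIK3CA each had more than 8000 exon bases, and PIK3R3 had 7410. Of all tested genes with at least 8000 exon bases, 14.4% were called higher, and the part of length in these calls was not tested.

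AMPK and the REDD proteins restrain mTORC1 through TSC2 when energy is low or cells are stressed. Of 11 tested genes in this list 2 rose (18.2%, against 7.76% of all tested genes), and the list median was 0.15. The count of genes that rose was also 2 in each of the fits that left out 1 library. DDIT4L, also called REDD2, rose from 39.2 ± 0.458 to 61.2 ± 1.91 CPM (0.64, edgeR adjusted p = 0.000714), and PRKAA2, a catalytic subunit of AMPK, from 82.0 ± 14.0 to 142 ± 13.6 CPM (0.79, adjusted p = 0.00273). Among 18 tested genes of GATOR, KICSTOR and the amino acid sensors, 1 rose, with a list median of 0.04. This share of 5.6% was below the 7.76% over all tested genes. That gene was SESN3, a sestrin that restrains mTORC1 (0.42, adjusted p = 0.0487), and its groups overlapped.

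Downstream, 2 of 13 tested mTORC1 substrates rose (15.4%, against 7.76% of all tested genes). In the same list 1 fell (7.7%, against 5.32%), and the list median was 0.04. LPIN1, a lipid phosphatase whose entry to the nucleus mTORC1 controls, was at 33.2, 36.7 and 41.8 CPM in controls and at 129, 112 and 126 CPM with fluoxetine. All treated libraries lay far above the controls, with a log2 fold change of 1.71 (SE 0.10, edgeR adjusted p = 4.95e-06). ULK1, the kinase that starts autophagy, rose from 83.0 ± 21.2 to 128 ± 15.0 CPM (0.62, adjusted p = 0.0353), and MITF, a transcription factor related to TFEB, fell from 20.5 ± 2.08 to 15.6 ± 0.315 CPM (-0.39, adjusted p = 0.0414). Of 6 tested mTORC2 substrates 1 rose, the kinase PRKCA (0.38, adjusted p = 0.0484), with a median of 0.03. Among the 6 S6K and translation targets 1 fell, the cap-binding protein EIF4E (-0.26, adjusted p = 0.0401), with a median of -0.08. The calls of SESN3, PRKCA and MITF were kept in 2 of the 6 fits that left out 1 library, and those of ULK1 and EIF4E in 3. With all libraries in, SESN3 was not called under limma-voom, RLE scaling or library size alone, PRKCA under limma-voom or RLE scaling, MITF under library size alone, and EIF4E under library size alone or equal depth (largest adjusted p = 0.0821). Lists with 1 call in 6 genes are too short for their share to be read against the background.

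**Figure D5:**
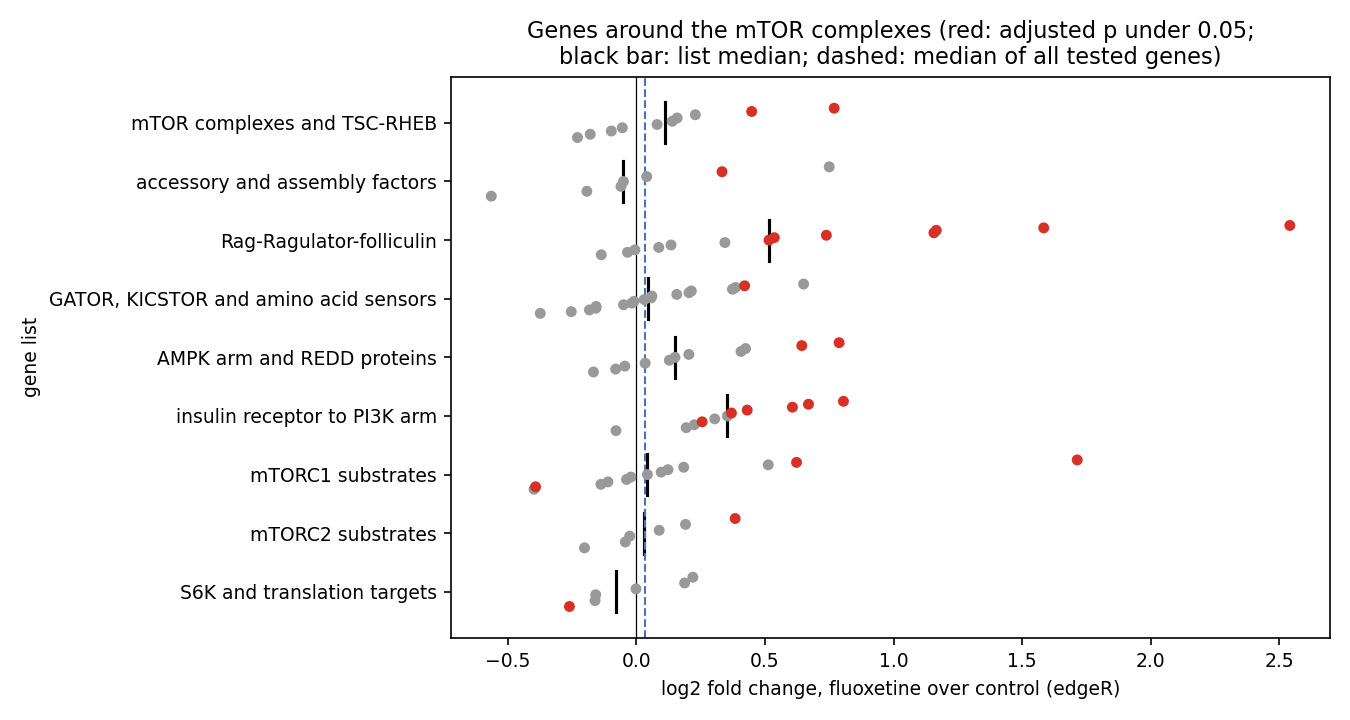
Log2 fold change (fluoxetine minus control) of every tested gene in the members and in 8 lists of connected genes, with called genes in red, list medians as black bars and the median of all tested genes (0.03) as a dashed line. The Rag-Ragulator-folliculin list reaches 2.54 (RRAGD) with a median of 0.52, while the members lie between -0.23 and 0.77.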

How the data were processed

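RNA of 6 H460 samples was sequenced as paired reads of 150 bases. The authors deposited a table of raw read counts per gene, with their own log2 fold changes and p-values, which compare the groups and were not used. The submitters' processing notes name fastp 0.20.0, HISAT2 2.1.0, HTSeq 0.10.0 and DESeq2 1.18.1. Genome build and strand setting are not given in the sources used here; of 31762 genes, 31635 are in GENCODE 29 (GRCh38), 96.81% with the same start and end. Group labels and column names gave 3 control and 3 fluoxetine libraries.

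Counts were filtered (filterByExpr), scaled by TMM and tested with edgeR 4.0.16 in R 4.3.3, with Benjamini-Hochberg adjustment over 15646 genes and a threshold of 0.05. CPM were computed with TMM library sizes. The script was tested on simulated data. Alternatives were DESeq2 1.42.0, limma-voom (limma 3.58.1), other scalings and filters, equal depth, a replicate block, leaving out each library and, chosen after seeing the data, removal of exon length and GC trends. Depth was 16157507 to 27823667 counts; intervals around fold changes reflect library spread, and counts of 0 to 3 only counting error.

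The members and gene lists were chosen with earlier results of these data known. Named genes were all members, the called genes of each list (5 of smallest p where more), genes overlapping a member and the 3 genes most alike to the member of smallest p; further genes named were chosen after their values were seen. Some genes that this rule selects are not reported here.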

Additional observations from a re-analysis of the deposited data

How the results depend on the processing

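Of 150 values for the 10 members under alternatives, 137 kept their direction and side of the threshold. Over all genes the 1214 higher and 833 lower calls became 2231 and 1787 with the replicate block, lower calls were 1516 with no filter on low counts and 1770 with exon length and GC trends removed, and at a fold of 2 or more there were 195 higher and 23 lower. Leaving out 1 library gave 409 (without fluoxetine replicate 1) to 1627 (without control replicate 3) higher and 163 to 2006 lower calls. Members called higher numbered 1 to 2 and members called lower 0 to 1 when 1 library was left out, and at a fold of 2 or more the count was 0. MTOR reversed with the trends removed (-0.0506) and ranged from -0.0245 to 0.15 with 1 library left out (negative without control replicate 1 or fluoxetine replicate 3), TSC2 reversed with the trends removed (-0.0069), DEPTOR ranged from -0.52 to 0.34 and the log2 DEPTOR to MTOR ratio from -0.48 to 0.24, both positive without control replicate 2 or fluoxetine replicate 3. The cause was not tested. Same-numbered libraries correlated at 0.03, 0.12 and 0.39 in their deviations from group means, and control replicate 1 correlated best with fluoxetine replicate 2 (0.32), so the numbers were not taken as pairs. The replicate block called 3 members higher, adding MLST8 (0.24, edgeR adjusted p = 0.0382). DEPTOR had few reads, at 13 to 44 counts per library.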

Other observations

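Genes that help assemble or accompany the complexes had a median log2 fold change of -0.05 over 7 tested genes. Of these, 1 rose (14.3%, against 7.76% of all tested genes) and 0 fell (against 5.32%), and 7 genes are too few to read against these shares. PRR5L, a partner of mTORC2, was at 96.2, 103 and 99.7 CPM in controls and at 131, 114 and 132 CPM with fluoxetine, without overlap (0.33, edgeR adjusted p = 0.0229), and was called in 2 of the 6 fits that left out 1 library. RHEBL1, a relative of RHEB, had only 17 to 40 counts per library and was not called (0.75, adjusted p = 0.132). TELO2 and TTI1, which help fold MTOR and related kinases, had log2 fold changes of -0.56 (adjusted p = 0.187) and -0.19 (adjusted p = 0.168). RHEBL1, TELO2 and TTI1 were chosen after their values were seen.

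Among the 15646 tested genes, the pattern most like that of TSC1 over the 6 libraries was that of TTC39C (Pearson r = 0.999 of log2 CPM), followed by INTS3 (0.998) and ZFYVE26 (0.996). Their log2 fold changes were 0.44 (edgeR adjusted p = 0.0155), 0.38 (adjusted p = 0.0157) and 0.88 (adjusted p = 0.00184). The 6 points share their libraries and fall into the 2 groups, so these values describe likeness only.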
